A study of Mus musculus with 6 samples.

Results

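The Dlk1-Dio3 imprinted cluster was represented in these osteoclast samples by 5 measured microRNAs (miRNAs), mmu-miR-134, mmu-miR-381, mmu-miR-382, mmu-miR-543 and mmu-miR-668 (below without the mouse prefix). They are the assays of this locus, star strands left out, that hold a value in the deposited normalized table, and they are 5 of the 95 assays with values and of the 709 miRNA assays on the array. The samples were osteoclasts, the cells that resorb bone, which had been sorted magnetically from mouse bone marrow as OSCAR+CTR+ cells and measured by SYBR Green real-time PCR over 40 cycles. There were 3 samples from mice with intact osteoclast miRNAs (OCmiR-Intact, here intact) and 3 from mice with an osteoclast-miRNA knockdown (OCmiR-KD, here knockdown). The sources used here do not give the allele, promoter or agent behind the knockdown, nor the strain and age of the mice. The design text speaks of pooled RNA of 3 mice a group, whereas each group holds 3 samples, so p-values cover only the spread among these samples, and that spread may be technical.

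The Dlk1-Dio3 locus is an imprinted region in which protein-coding genes such as Dlk1, Rtl1 and Dio3 are expressed from the paternal chromosome and long noncoding RNAs, small nucleolar RNAs and miRNAs from the maternal one. Its miRNAs are cut from long maternal transcripts that include Meg3, Rian and Mirg, and they are best known from embryo, placenta and brain. In neurons the transcription factor Mef2 is known to drive the group that runs from miR-379 to miR-410, to which all 5 miRNAs belong. Among them, miR-134 is known to restrain dendritic spine growth by repressing Limk1, miR-543 is known to repress N-cadherin in neural progenitors, and miR-668 is known to repress the mitochondrial fission protein Mtfp1.

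The mature sequences are given in the order of the locus because they show that the 5 miRNAs share a locus but no seed. Capitals mark the seed, bases 2 to 8, which pairs with target messenger RNAs.
miR-543: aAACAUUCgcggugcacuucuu
miR-381: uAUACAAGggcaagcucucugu
miR-382: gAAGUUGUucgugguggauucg
miR-134: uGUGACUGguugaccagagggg
miR-668: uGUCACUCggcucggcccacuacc
No seed was shared by any pair of these, and 0 other assays of the array shared a seed with any of them. All 5 sequences matched a single mature miRNA in RefSeq (GRCm38.p6), each on the plus strand. They lie at chr12:109717304-109717325 (miR-543, the 3p arm of its hairpin), chr12:109726870-109726891 (miR-381, 3p), chr12:109733781-109733802 (miR-382, 5p), chr12:109734145-109734166 (miR-134, 5p) and chr12:109734774-109734797 (miR-668, 3p). From miR-543 to miR-668 they span 17.5 kb. The hairpins of miR-382 and miR-134 are 292 bases apart and those of miR-134 and miR-668 are 522 bases apart, with no other miRNA hairpin between them, while 6874 bases separate miR-381 from miR-382.

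Most assays of the locus gave no value. Of 76 assays listed for the locus, counting both arms and star strands, 5 had values in all 6 samples and 71 were Null in all 6. That is 6.58% of the listed assays, against 13.4% of all 709. Neither share was split by plate or by star strand, so whether the gap is particular to the locus was not tested. Exact sequence matches placed 71 of the 76 on the RefSeq map, and of these 39 lie upstream of miR-543, 13 lie downstream of miR-668 and 14 lie among the 5 measured ones, and all of those were Null. The list was not checked beyond these matches, and 1 further assay within the matched stretch, miR-882, was Null too. Null was the same in both groups for each of these assays, so a group difference could be examined for the 5 measured miRNAs only. The sources used here do not say which rule made a well Null.

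**Figure D1:**
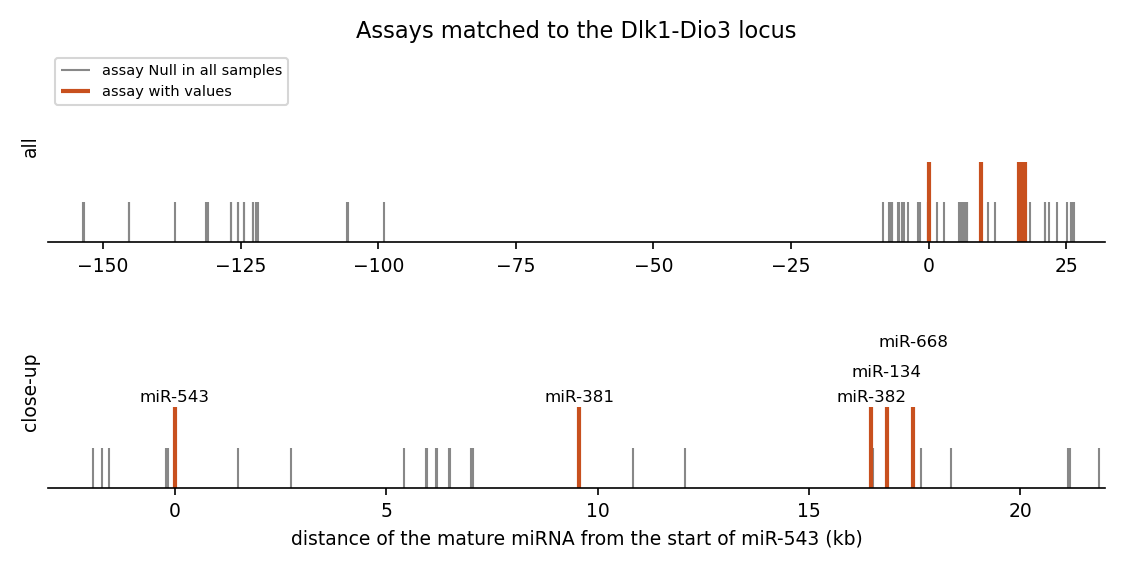
Position of each assay matched to the Dlk1-Dio3 locus, as distance in kb from the start of mature miR-543, over the whole matched stretch (top) and around the measured miRNAs (bottom). Tall coloured lines are the 5 assays with values and short grey lines are assays that were Null in all 6 samples; miR-382, miR-134 and miR-668 stand within about 1 kb of each other and Null assays lie on both sides of every group of measured ones.

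Both arms were assayed for the miR-382 hairpin, and values came from a single arm. As the rule behind Null is not given, this does not show that the other arm was absent. In the hairpin sequence the capitals are the miR-382 assay (bases 11 to 32, values in 6 samples) and the miR-382* assay (bases 49 to 70, Null in all 6).
Mir382 hairpin: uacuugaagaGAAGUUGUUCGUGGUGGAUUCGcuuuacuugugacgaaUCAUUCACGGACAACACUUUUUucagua
The RefSeq hairpin lies at chr12:109733771-109733846. Because a SYBR Green assay is read through its primer, the closest other sequences on the array were also compared. They are shown for the pair of miRNAs that have a close relative in the same locus, again with the seed in capitals.
miR-495: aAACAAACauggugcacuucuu
miR-300: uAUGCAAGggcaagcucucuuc
The miR-495 sequence was nearest to miR-543, at 4 edits, and the miR-300 sequence was nearest to miR-381, at 3 edits. Both of these relatives were Null in all 6 samples. For miR-382 the nearest sequence was 7 edits away, and for miR-134 and miR-668 it was 9 edits away.

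A feature of the deposited values sets what a difference between the groups can mean here, and it divides the 5 miRNAs. Ct is the cycle at which fluorescence crosses a threshold, and a level below is minus delta Ct. It is in log2 units and is set against the small nuclear RNA U6 of the same sample and plate. Turned back into linear multiples of plate 1 U6, the 3 knockdown values of an assay average 1 to within 0.001 in 88 of the 95 assays, or 92.6%, while the intact values do so in 0 of 95. miR-134, miR-381 and miR-382 are among the 88. Their knockdown values on this scale were 0.115, 0.310 and 2.58 for miR-134, 0.786, 0.764 and 1.45 for miR-381, and 0.629, 1.58 and 0.791 for miR-382, and each set has a mean of 1.00. miR-543 and miR-668 are among the 7 others, with linear knockdown means of 63.2 and 2.68. For the first 3 the knockdown mean is therefore no free measurement, and "fell" below says only that the deposited knockdown values lie under the intact ones. The size of such a fall and its limma p-value thus rest largely on the intact reading and on the spread among samples. The sources used here do not say which step set these knockdown means.

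Relative to U6, 3 of the 5 miRNAs fell in knockdown osteoclasts, against 84.2% of the 95 assays tested, and 0 of the 5 rose, against 0.0% of the 95 (limma, adjusted p under 0.05). At an unadjusted p under 0.05 also 0 of the 5 and 0 of the 95 were higher. The 3 that fell, miR-382, miR-134 and miR-381, are the 3 with a fixed knockdown mean, and the 2 that did not pass, miR-543 and miR-668, are the 2 without one. All 5 were read on plate 1, so the same U6 wells served as reference. U6 of plate 1 crossed the threshold at 29.7 ± 0.547 cycles (SD, n = 3) in the intact group. In the knockdown group it did so at 30.3 ± 0.906 cycles (SD, n = 3), a delay of 0.608 cycles.

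miR-382 showed the largest difference of the 5. Among the 3 that fell, it also had the highest intact level, and the 3 falls follow the order of the intact levels. Its levels were 5.33, 4.71 and 5.39 in the intact samples and -0.67, 0.66 and -0.34 in the knockdown samples. All 3 knockdown levels lay below all 3 intact levels, and within each group the values stayed within 1.33 log2 units of each other. The mean went from 5.14 ± 0.38 to -0.12 ± 0.69 (SD, n = 3 each). The log2 difference was -5.26 (SE 0.55, 95% interval -6.54 to -3.98, limma adjusted p = 6.1e-05). In cycles, its assay crossed at 24.0, 24.9 and 25.0 in intact and at 31.8, 29.9 and 29.7 in knockdown samples. The authors' deposited table gives a fold of 38.3, intact over knockdown.

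miR-134, whose hairpin is the next downstream of miR-382, had a similar mean log2 fall but a far wider spread among knockdown samples. Its levels were 4.37, 3.26 and 3.67 in the intact samples. In the knockdown samples they were -3.12, -1.69 and 1.36, a range of 4.48 log2 units, and the third of these was the highest. The groups did not overlap, and 84 of the other assays had a smaller SD among knockdown samples. The mean went from 3.77 ± 0.56 to -1.15 ± 2.29 (SD, n = 3 each). The log2 difference was -4.92 (SE 1.08, 95% interval -7.44 to -2.39, limma adjusted p = 0.0033). Because the linear mean of the 3 is 1, a wide spread by itself puts the mean log2 level below 0. On the linear scale the intact mean of miR-134 was 14.3 times U6, against 36.1 for miR-382, with both knockdown means at 1.00. The log2 difference of miR-134 was -6.17 without knockdown sample 3 and -3.93 without knockdown sample 1, and it passed in both cases. With the knockdown mean fixed, these passes are no separate test of the fall. The authors' deposited table gives a fold of 30.2.

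miR-381 had the smallest fall, the lowest intact level and the closest knockdown values of the 3. Its levels were 3.41, 2.62 and 2.95 in the intact samples and -0.35, -0.39 and 0.54 in the knockdown samples, again with no overlap. The mean went from 2.99 ± 0.39 to -0.07 ± 0.52 (SD, n = 3 each). The log2 difference was -3.06 (SE 0.52, 95% interval -4.27 to -1.85, limma adjusted p = 0.00081). In the authors' deposited table its fold is 8.33. Groups without overlap, knockdown lower, were thus seen for 3 of the 5, against 82.1% of the 95 assays.

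miR-543 was read early in all 6 samples. Its levels were 6.02, 6.26 and 5.60 in the intact samples and 6.77, 5.50 and 5.13 in the knockdown samples. The groups overlapped, and the highest of the 6 values was that of knockdown sample 1. The intact mean was 5.96 ± 0.33 (SD, n = 3) and the knockdown mean 5.80 ± 0.86 (SD, n = 3), a log2 difference of -0.16 that did not pass (SE 0.59, 95% interval -1.53 to 1.21, limma adjusted p = 0.845). The raw Ct ran from 23.3 to 24.7 cycles in the intact group and from 24.2 to 25.1 cycles in the knockdown group. On the linear scale the group means were 63.3 and 63.2 times U6. Its mean level ranked 22nd of the 95 assays in intact samples and 1st of the 95 in knockdown samples, where the levels of most other assays lie near 0.

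Among intact samples, miR-668 was on average read latest of the 5 and varied most. In knockdown samples its mean Ct was 29.1 cycles, earlier than for miR-381 (30.4), miR-382 (30.5) and miR-134 (31.5). There its mean level ranked 4th of the 95 assays. Its levels were 0.24, 0.67 and 2.96 in the intact samples and 2.13, 1.12 and 0.55 in the knockdown samples. Intact sample 3 was the highest of the 6 and intact sample 1 the lowest, so the knockdown values lay wholly inside the intact range. The intact mean was 1.29 ± 1.47 (SD, n = 3) and the knockdown mean 1.27 ± 0.80 (SD, n = 3), a log2 difference of -0.02 that did not pass (SE 0.83, 95% interval -1.95 to 1.91, limma adjusted p = 0.995). The interval thus leaves room for a change of close to 2 log2 units in either direction. Without intact sample 3 the difference was 0.82 and still did not pass (limma adjusted p = 0.280). The authors' deposited table gives folds of 1.01 for miR-668 and 1.12 for miR-543.

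**Figure D2:**
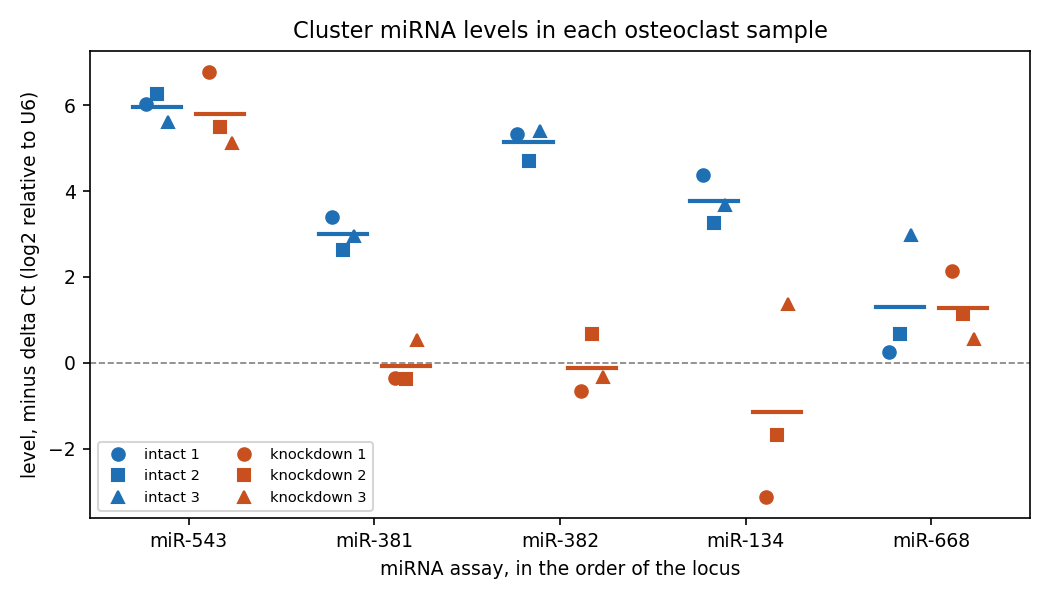
Level of each cluster miRNA (minus delta Ct, log2 units relative to U6, dashed line at the level of U6) in the 3 intact and 3 knockdown samples, with symbols for the replicate number and bars for group means. The groups are apart for miR-381, miR-382 and miR-134 and overlap for miR-543 and miR-668, which holds relative to U6; the 3 knockdown values of miR-134 run from -3.12 to 1.36.

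The 7 assays without a fixed knockdown mean, to which miR-543 and miR-668 belong, had differences in a narrow range. The other 5 are miR-210, miR-103, miR-470, miR-293 and miR-138. The 7 log2 differences ran from -0.33 to 0.05, and 5 of them lay within 0.05 of 0, while their standard errors ran from 0.58 to 1.18. Relative to U6, none of the 7 passed in limma (0 of 7, smallest adjusted p = 0.663, and 0 at an unadjusted p under 0.05). At an unadjusted limma p under 0.05, 7 of the 7 differed when the samples were centred on the measured miRNAs. After quantile normalization 5 of the 7 did. Of all 95 measured assays, 21 and 13 were higher by the same measure in these settings. The median difference of all assays relative to U6 was -4.54, and both settings take out such a common change. Assays with differences near 0 relative to U6 lie above that change by construction, so these counts are no separate evidence. How these 7 came to be set apart from the other 88 was not tested.

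**Figure D3:**
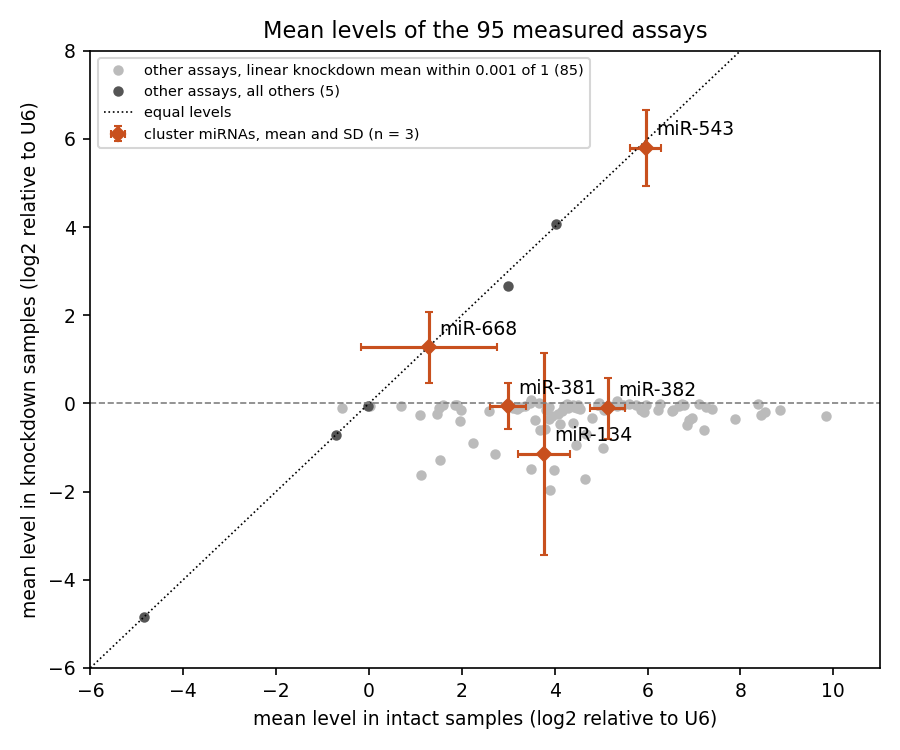
Mean level of each of the 95 assays in intact (x axis) and knockdown samples (y axis), both in log2 units relative to U6, with error bars of 1 SD for the 5 cluster miRNAs. miR-543 and miR-668 lie at or near the dotted line of equal levels, and miR-381, miR-382 and miR-134 lie in the band of 88 assays whose linear knockdown mean is 1.

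Subtracting 2 miRNAs within a sample takes out the reference RNA, and the differences ask whether the 2 changed by unequal amounts. The linear knockdown means of miR-381, miR-382 and miR-134 are fixed at 1 times U6, however. Pairs that hold any of these miRNAs thus carry that fixed value, and their shifts are no free measure of unequal change. All 10 pairs were compared between the groups by an exact two-sided permutation test over samples, whose smallest possible p with 3 against 3 is 0.1. In 6 of the 10 pairs the groups did not overlap (exact permutation p = 0.1 each, 0.167 adjusted over the 10 pairs), and no pair could pass 0.05 in this design. Primers affect the level an assay reads, so the size of a within-sample difference is one of assay readings, and only its shift between groups is compared.

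miR-543 stood 0.69, 1.55 and 0.21 log2 units above miR-382 in the intact samples and 7.44, 4.84 and 5.47 above it in the knockdown samples, a shift of 5.10. Against miR-381 the lead of miR-543 was 2.61, 3.64 and 2.65 in intact and 7.12, 5.88 and 4.59 in knockdown samples. Against miR-134 it was 1.65, 3.00 and 1.93 in intact and 9.89, 7.19 and 3.76 in knockdown samples. In each of these 3 pairs the groups were fully apart. The shift was 2.90 for miR-381 and 4.75 for miR-134.

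miR-668, which read lower than miR-382 in every intact sample, read higher in every knockdown sample. The difference, miR-668 minus miR-382, was -5.09, -4.04 and -2.43 in intact and 2.80, 0.46 and 0.89 in knockdown samples, a shift of 5.24 (exact permutation p = 0.1). Against miR-381 it was -3.17, -1.95 and 0.015 in intact and 2.48, 1.51 and 0.017 in knockdown samples, so that sample 3 of each group was the same to within 0.002 log2 units and the groups only just did not overlap. Against miR-134, its neighbour in the locus, the groups overlapped, with -4.13, -2.59 and -0.71 in intact and 5.25, 2.82 and -0.81 in knockdown samples (exact permutation p = 0.2). Knockdown sample 3, in which miR-134 was highest, made that overlap.

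Among the 3 that fell, the distance between miR-382 and miR-381 was smaller in knockdown samples. miR-382 stood 1.92, 2.09 and 2.44 above miR-381 in intact samples and -0.32, 1.05 and -0.88 relative to it in knockdown samples, a shift of -2.20 with no overlap (exact permutation p = 0.1). The linear knockdown means of both are fixed at 1, so this is no measure of unequal change. After quantile normalization these groups overlapped (shift -1.59, exact permutation p = 0.3). The pairs miR-382 and miR-134 (shift -0.34, exact permutation p = 1) and miR-381 and miR-134 (shift 1.86, exact permutation p = 0.3) overlapped, as did the pair without fixed means. Without knockdown sample 3 the shift of miR-382 against miR-134 turned to 1.02 and that of miR-381 against miR-134 was 2.81, with the groups apart in both cases. miR-543 stood 5.78, 5.59 and 2.64 above miR-668 in intact and 4.64, 4.37 and 4.57 above it in knockdown samples, a shift of -0.14 (exact permutation p = 1) with an SD of 0.14 among the knockdown samples against 1.76 among the intact ones.

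**Figure D4:**
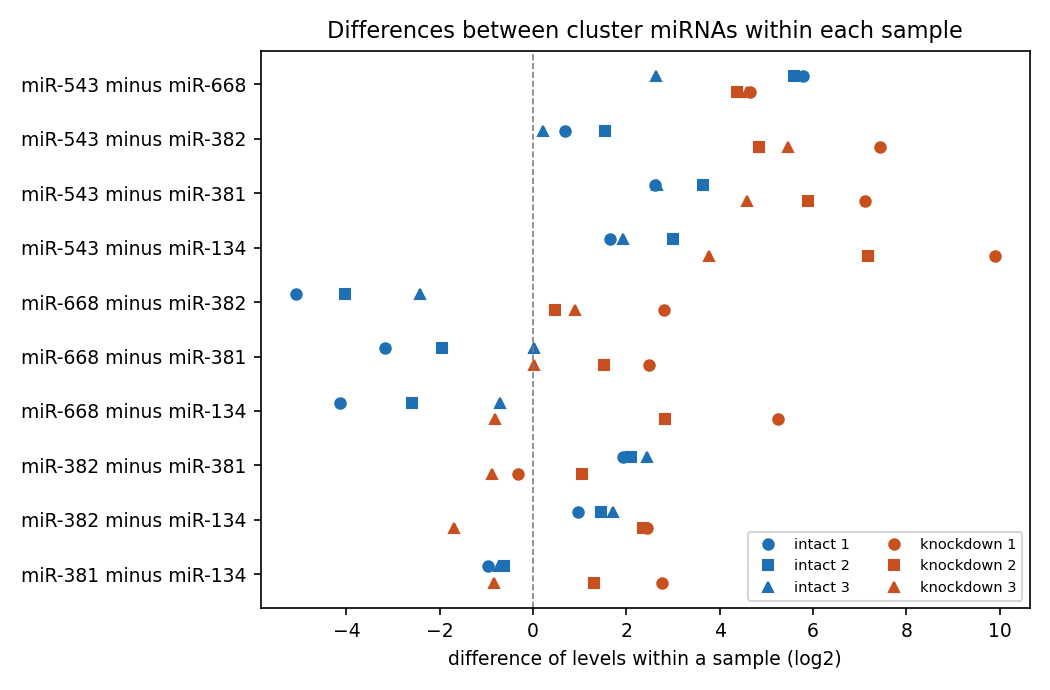
Difference of levels within each sample (log2 units) for the 10 pairs of cluster miRNAs, intact samples in blue and knockdown samples in orange, with symbols for the replicate number. The groups are apart in 6 pairs, 5 of which set miR-543 or miR-668 against miR-381, miR-382 or miR-134; for miR-668 minus miR-381 sample 3 of both groups lies at 0.02 or less.

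For miR-381, miR-543 and miR-668, but not for miR-134 and miR-382, the sign of the difference changed under centring and quantile normalization. Relative to U6 the median difference of the 95 assays was -4.54 log2 units. Centred on the mean Ct of the 95 measured miRNAs it was -0.06, and after quantile normalization -0.19. On the centred scale miR-543 passed above the mean change with 4.32 (SE 0.59, limma adjusted p = 0.0013) and miR-668 passed above it with 4.46 (SE 0.83, limma adjusted p = 0.0050), 2 of 5 against 20.0% of the 95 assays in that direction. miR-134 stood at -0.43 and miR-382 at -0.78 without passing, 0 of 5 against 20.0% of the 95 below the mean change, and miR-381 reversed to 1.42 (SE 0.50, limma adjusted p = 0.053), short of the threshold. After quantile normalization the same 2 passed higher, miR-543 with 4.53 and miR-668 with 4.37 (limma adjusted p = 0.00075 and 0.026), against 8.42% of the 95. In that setting 0 of the 5 passed lower, against 4.21%. At an unadjusted limma p under 0.05, 0 of the 5 were lower in either setting. By the same measure 3 of the 5, with miR-381, and 21 of the 95 were higher when centred, and 2 of the 5 and 13 of the 95 were higher after quantile normalization. The 88 assays with a fixed knockdown mean make up most of the mean change, so a level that stayed level relative to U6 lies above it by construction.

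The order of the 5 by level is one of assay readings, as primers enter it, and is given as a description. In intact samples it ran from miR-543 (5.96) over miR-382 (5.14), miR-134 (3.77) and miR-381 (2.99) to miR-668 (1.29). miR-543 and miR-382 were 0.82 ± 0.68 apart (SD, n = 3) and miR-134 and miR-381 were 0.77 ± 0.17 apart, in the same direction in each of the 3 samples. miR-668 was lowest in intact samples 1 and 2 and 0.015 log2 units above miR-381 in intact sample 3. In knockdown samples miR-543 (5.80) was first in each of the 3, and miR-668 (1.27) was second on average, but in knockdown sample 3 miR-134 exceeded it. The linear means of miR-381, miR-382 and miR-134 are all fixed at 1 there, so these 3 have no order of their own.

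For each miRNA the other assays with the most similar levels were found by the mean absolute difference of level over the 6 samples. The assays nearest to miR-381 were miR-222 (0.14 log2 units) and miR-532-5p (0.20), and the nearest to miR-382 was miR-320 (0.24). For miR-134 the nearest were miR-144 (0.45), miR-142-5p (0.57) and let-7d (0.64). All of these, and the third nearest assays miR-30c to miR-381 (0.45) and miR-223 to miR-382 (0.46), as well as the second nearest to miR-382, miR-148b (0.45), are among the 88 with a fixed knockdown mean. That group holds 92.6% of the 95 assays, so such neighbours are common. miR-543 had no close match, with miR-103 nearest at 1.82, then miR-210 (3.04) and let-7e (3.06). For miR-668 the nearest were miR-26a (0.96), miR-1839-5p (1.05) and miR-206 (1.22). These neighbours of miR-668, and let-7e, are among the 88 too, whereas miR-103 and miR-210 are not. No assay held the same 6 values as any of the 5, and none of the 5 repeated a delta Ct between knockdown samples, which 7 of the 88 assays with a fixed mean did.

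The array measures no messenger RNA, so OSCAR, CTR and other osteoclast genes could not be checked, and the cells were described by miRNAs of cell types that the sort could hold. Of 14 assays of myeloid and macrophage miRNAs 6 had values, and their summed linear level ran from 209 to 399 times U6 in intact and from 3.49 to 10.6 times U6 in knockdown samples. Of 15 assays of stromal and osteoblast-lineage miRNAs 5 had values, with sums of 245 to 470 in intact and 3.86 to 5.60 in knockdown samples. Of 9 neural assays only miR-128 had a value, at 83.7 to 145 in intact and 0.189 to 1.63 in knockdown samples. Primers affect the level an assay reads, so the sums of different lists do not give the share of each cell type. Among the listed miRNAs with no value under their own name are miR-155 and miR-146a (myeloid), miR-125b, miR-10b and miR-199b (stromal), and miR-9 and miR-124 (neural). The myeloid miR-24 and the stromal miR-199a-3p hold the same delta Ct in all 6 samples, so their values enter both sums and at most 1 of these assays is a measurement of its own. All 12 measured markers have a fixed knockdown mean, and their part in the differences of the cluster miRNAs was not tested. In bulk samples like these, fewer cells that express a miRNA and less of it in each cell cannot be told apart.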

How the data were processed

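The 5 miRNAs and all lists were chosen with earlier results of these data known. Per the labels' protocols, Trizol served for extraction, the QuantiMir kit for reverse transcription and a ViiA7 for PCR. The authors deposited Ct values (kept here as a score in cycles) for 717 wells on 2 plates, delta Ct against U6 on a log2 scale for 709 assays, and a table of fold changes. Ct minus delta Ct was 1 constant per sample and plate and equals 1 well of each plate, taken as U6. The sources used here do not give the Ct threshold, amplification efficiency or analysis software. For plate row E, 48 well IDs that had become numbers were restored.

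Levels are minus delta Ct and assume doubling per cycle. Assays with Ct under 35 in at least 3 samples (95 of 95) were compared with limma 3.58.1 in R 4.3.3 (lmFit, eBayes, no covariate). Tests were two-sided, and p-values were adjusted over the 95 by Benjamini-Hochberg, with 0.05 as threshold. A PCR array has no read depth; 3 samples a group limit the precision. Named beside the 5 miRNAs are, for each, the 3 assays nearest in level and relatives by sequence. Assay sequences were matched to RefSeq (GRCm38.p6) mature miRNAs. Alternatives were other references, Ct filters, moderated spread with trend, a replicate block and leaving out each sample.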

Additional observations from a re-analysis of the deposited data

How the results depend on the processing

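The 3 falls and the 2 differences that did not pass kept their side of the threshold with U6 of plate 1, no reference, the unnamed control wells as reference, other Ct filters, trended spread and the replicate block. The median difference of the 95 assays was -4.54 with U6, -5.15 with no reference and -5.01 with the control wells. Swapping these references thus moved levels little and is no separate test of the falls. With the samples centred on the measured miRNAs, 0 of the 5 passed lower and 2 higher (all assays: 19 lower, 19 higher), and after quantile normalization 0 lower and 2 higher (all assays: 4 lower, 8 higher). The log2 differences that changed sign under centring and quantile normalization were those of miR-381 (1.42 and 1.00), miR-543 (4.32 and 4.53) and miR-668 (4.46 and 4.37). Centring subtracts the mean change, and quantile normalization gives every sample the same set of values. Both therefore take out a change common to the assays by construction. Leaving out 1 sample kept 3 of the 5 lower and 0 higher, with 75 to 81 of the 95 lower and 0 higher; it put the difference between -0.65 and 0.175 for miR-543 and between -0.55 and 0.82 for miR-668, with a change of sign without knockdown 3 for miR-543 (0.175), and without intact 3 (0.82), knockdown 2 (0.05) or knockdown 3 (0.34) for miR-668, none of which passed. Between 6 and 9 of the 10 pairs were then without overlap, the 9 being without knockdown 3. After quantile normalization 5 pairs were. With the knockdown means of the 3 that fell fixed, leaving out a sample is no separate test of their falls either.

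Replicate numbers are shared by the groups, but deviations of same-numbered samples correlated at 0.02, 0.10 and 0.08 over the 95 assays, so the numbers were not taken as pairs. With the replicate block 82 of 95 assays and 3 of the 5 miRNAs passed lower (limma adjusted p from 0.00013 to 0.0017), and the paired shift kept 1 sign in 6 of the 10 pairs. A late Ct rests on few template copies; the latest among the 5 was that of miR-134 in knockdown 1 (34.2 cycles).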
